A study of Mus musculus with 8 samples.

Results

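Cyp1b1 and 4 genes of the aryl hydrocarbon receptor pathway, Cyp1a1, Ahr, Ahrr and Tiparp, were followed in mouse CD11b+ cells exposed to peptidoglycan (PGN), a polymer of the bacterial cell wall. The members were every probe set that the platform annotation pairs with 1 of these 5 gene symbols alone. This gave 10 probe sets of 34945 with a single symbol, and 5 genes of 18193. Cyp1b1 was chosen by its averaged PGN difference, the largest of all genes in these arrays, and the other 4 genes were named for their place in the pathway, with earlier results of these data known. The PGN differences of the 5 genes are therefore given as a description, with no test.

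CD11b, the integrin subunit encoded by Itgam, is a surface protein of myeloid cells such as monocytes and neutrophils. The 4 groups were NOD.Idd3 cells with PGN at 5 µg/ml, unstimulated NOD.Idd3 cells, NOD cells with PGN at 5 µg/ml, and unstimulated NOD cells. All cells were kept for 4 h at 37 °C, the unstimulated ones in medium alone, and each group had 2 arrays of total RNA. NOD mice develop autoimmune diabetes spontaneously, and NOD.Idd3 is a congenic strain named for a diabetes locus on chromosome 3 that includes Il2 and Il21. The labels give no tissue, age or sex for the mice and no extent for the congenic segment. The labels call the 2 arrays of a group biological replicates without naming an animal or a pool, and the p-values reflect the spread of these arrays alone.

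The aryl hydrocarbon receptor, encoded by Ahr, is a ligand-activated transcription factor that waits in the cytoplasm bound to the chaperone Hsp90aa1 and its partners. With a ligand it moves to the nucleus, pairs with Arnt and binds DNA sites that hold the core letters GCGTG. Cyp1a1 and Cyp1b1 are its best known target genes and encode cytochrome P450 enzymes that oxidise aromatic hydrocarbons, while Ahrr and Tiparp are target genes whose products restrain the receptor. Cyp1b1 is known for expression outside the liver, including in macrophages.

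Cyp1b1 and Tiparp stood higher with PGN than without it on all 3 probe sets of each gene. Cyp1a1 was dim on all 8 arrays, and Ahr did not separate the conditions. Ahrr was high on all 4 PGN arrays, but in unstimulated cells it stood higher in replicate 1 than in replicate 2 of both strains.

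The upstream sequences are shown so that the receptor's core letters can be compared between Cyp1b1, Tiparp and Ahrr, which were bright with PGN, and Cyp1a1, which was dim. The 250 bases before the start were taken from the RefSeq promoter table (GRCm38.p6), which matched 4 of the 5 genes. They lie at chr17:79715062-79715311 (minus strand) for Cyp1b1, chr9:57697363-57697612 (plus strand) for Cyp1a1, chr13:74292332-74292581 (minus strand) for Ahrr and chr3:65528197-65528446 (plus strand) for Tiparp. Each is written 5′ to 3′ on the strand of its gene, and capitals mark the letters GCGTG read on either strand, so that CACGC is a match on the opposite strand.
Cyp1b1: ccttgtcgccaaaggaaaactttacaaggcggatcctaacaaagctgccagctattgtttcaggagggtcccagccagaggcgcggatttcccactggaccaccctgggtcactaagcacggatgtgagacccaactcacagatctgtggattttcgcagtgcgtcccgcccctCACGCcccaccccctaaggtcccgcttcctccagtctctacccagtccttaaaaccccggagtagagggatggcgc
Cyp1a1: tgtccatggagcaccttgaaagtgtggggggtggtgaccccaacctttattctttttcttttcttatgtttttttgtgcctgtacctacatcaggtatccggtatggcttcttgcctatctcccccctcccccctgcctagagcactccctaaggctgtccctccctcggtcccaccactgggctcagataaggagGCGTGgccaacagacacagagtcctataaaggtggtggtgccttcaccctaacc
Ahrr: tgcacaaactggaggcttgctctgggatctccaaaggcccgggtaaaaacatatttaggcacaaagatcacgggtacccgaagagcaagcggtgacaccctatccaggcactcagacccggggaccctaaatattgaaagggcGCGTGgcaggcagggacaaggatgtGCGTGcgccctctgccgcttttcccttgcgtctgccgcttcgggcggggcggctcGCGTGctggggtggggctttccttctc
Tiparp: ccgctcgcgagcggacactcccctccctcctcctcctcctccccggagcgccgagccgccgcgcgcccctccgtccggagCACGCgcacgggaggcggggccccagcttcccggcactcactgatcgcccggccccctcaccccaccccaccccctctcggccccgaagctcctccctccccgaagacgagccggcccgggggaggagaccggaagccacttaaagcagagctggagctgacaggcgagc

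Each of the 4 sequences held the letters GCGTG, with 1 match in Cyp1b1, Cyp1a1 and Tiparp and 3 in Ahrr. The match began 76 bases before the start in Cyp1b1, 54 in Cyp1a1 and 170 in Tiparp, and 107, 82 and 27 bases before it in Ahrr. Of 32851 promoters in the table, 28.2% held these letters in the same window and 2.77% held them at least 3 times. The longer form TNGCGTG, which contains the core, was found once in Ahrr, where it overlaps the match nearest the start, in none of the other 3 sequences and in 4.1% of all promoters. A general NF-kB motif, searched on both strands, occurred once in Cyp1b1, 2 times each in Ahrr and Tiparp and not in Cyp1a1, against 45.8% of all promoters with at least 1. In none of the 4 sequences did the NF-kB motif overlap GCGTG. These matches describe letters in a short window only.

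Cyp1b1 was read by 3 probe sets, and all 3 stood higher on each of the 4 PGN arrays than on any unstimulated array. On 1416612_at, the brightest, the log2 intensity was 12.30 and 12.38 in NOD.Idd3 cells with PGN, against 3.98 and 4.27 in unstimulated NOD.Idd3 cells. In NOD cells it was 12.35 and 12.69 with PGN, against 6.30 and 4.03 unstimulated. The PGN arrays lay close together in both strains, while 1 unstimulated NOD array, replicate 1, stood apart from the other unstimulated arrays.

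The second Cyp1b1 probe set, 1416613_at, gave 8.92 and 8.92 in NOD.Idd3 cells with PGN, against 3.25 and 3.83 in unstimulated NOD.Idd3 cells. In NOD cells it gave 8.98 and 9.33 with PGN, against 3.83 and 3.41 unstimulated. On this probe set replicate 1 of unstimulated NOD, at 3.83, was level with replicate 2 of unstimulated NOD.Idd3. The third, 1432081_at, gave 5.30 and 5.84 in NOD.Idd3 cells with PGN, against 3.48 and 3.55 unstimulated, and 4.85 and 5.30 in NOD cells with PGN, against 3.90 and 3.23 unstimulated. The annotation derives the first and second probe sets from the same source sequence and the third from another.

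Averaged over both strains, the PGN difference of Cyp1b1 was 7.79 ± 0.41 on 1416612_at (log2, limma SE, 4 arrays per condition), 5.46 ± 0.19 on 1416613_at and 1.78 ± 0.21 on 1432081_at. The 3 probe sets shared the direction. All unstimulated Cyp1b1 values lay within the range of 18 genes of other tissues on the same arrays, which was 2.58 to 8.50 with a median of 5.06, so the unstimulated level was not measured above background and the differences are no exact sizes. The PGN values of 1416612_at and 1416613_at lay above that range, and those of 1432081_at lay inside it. On 1416612_at the PGN values stood at percentile 96.9 or above in their arrays, and the unstimulated values at 27.7 to 31.8 apart from NOD replicate 1 at 59.4. In bulk RNA, fewer cells that carry a transcript and less transcript per cell cannot be told apart.

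Within each strain and replicate number, the PGN difference on 1416612_at was 8.33 and 8.11 in NOD.Idd3 (replicates 1 and 2) and 6.05 and 8.66 in NOD. The smallest belongs to replicate 1 of NOD, whose unstimulated array was the high one. On 1416613_at the same 4 differences were 5.67, 5.09, 5.16 and 5.92, and on 1432081_at they were 1.82, 2.29, 0.94 and 2.08.

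**Figure D1:**
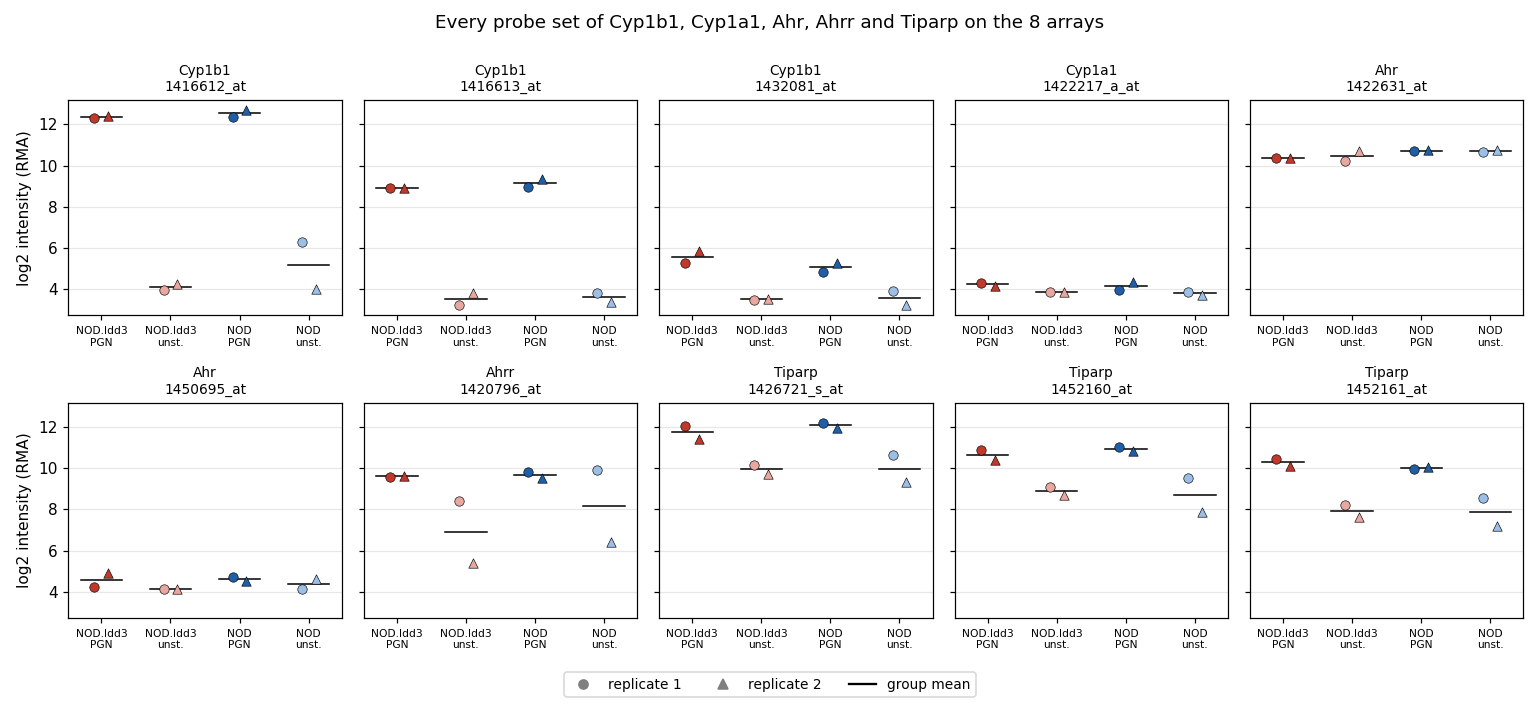
The log2 intensity (vertical axis, RMA values) of the 10 probe sets on the 8 arrays, in panels by probe set, with the 4 groups along the horizontal axis. Circles are replicate 1, triangles replicate 2 and bars the group mean. Cyp1b1 on 1416612_at lies between 12.30 and 12.69 with PGN and between 3.98 and 6.30 unstimulated, while the unstimulated Ahrr values split by replicate number.

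Cyp1a1, which encodes another inducible enzyme of the family, was read by 1 probe set, 1422217_a_at. Its log2 intensity was 4.30 and 4.19 in NOD.Idd3 cells with PGN, against 3.86 and 3.89 in unstimulated NOD.Idd3 cells. In NOD cells it was 3.99 and 4.39 with PGN, against 3.87 and 3.75 unstimulated. The 4 PGN arrays lay above the 4 unstimulated ones, but with a gap of 0.10 between the groups, and all 8 values lay low in their arrays, at percentiles 22.9 to 32.4. The averaged difference was 0.37 ± 0.15, a fold of 1.30. All 8 values were below 5.06, the median of the 18 genes of other tissues, which include Gfap and Prm1.

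Ahrr encodes the receptor repressor, a relative of the receptor that competes for Arnt. On its only probe set, 1420796_at, the log2 intensity was 9.57 and 9.64 in NOD.Idd3 cells with PGN, against 8.39 and 5.42 in unstimulated NOD.Idd3 cells. In NOD cells it was 9.81 and 9.51 with PGN, against 9.90 and 6.41 unstimulated. The PGN arrays lay close together, whereas the unstimulated arrays range from 5.42 to 9.90. Replicate 1 of unstimulated NOD lies above every PGN array. The other unstimulated values, 8.39, 5.42 and 6.41, lay inside the range of the genes of other tissues, 2.58 to 8.50. Differences from them are no exact sizes.

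The Ahrr difference with PGN was 1.19 and 4.21 in NOD.Idd3 (replicates 1 and 2) and -0.09 and 3.10 in NOD. The averaged difference was 2.10 ± 0.79. Within both strains the difference was larger in replicate 2. Without replicate 1 of unstimulated NOD the averaged difference was 2.98, and without replicate 2 of that group it was 1.23.

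Tiparp encodes a poly(ADP-ribose) polymerase family enzyme that modifies the receptor and lowers its activity. On 1426721_s_at the log2 intensity was 12.06 and 11.43 in NOD.Idd3 cells with PGN, against 10.17 and 9.73 in unstimulated NOD.Idd3 cells. In NOD cells it was 12.20 and 11.93 with PGN, against 10.63 and 9.31 unstimulated. The PGN arrays lay above the unstimulated ones without overlap, and so they did on the other 2 probe sets, which derive from the same source sequence.

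On 1452160_at Tiparp stood at 10.87 and 10.38 in NOD.Idd3 cells with PGN, against 9.09 and 8.70 unstimulated, and at 11.01 and 10.82 in NOD cells with PGN, against 9.50 and 7.87 unstimulated. On 1452161_at it stood at 10.46 and 10.12 in NOD.Idd3 cells with PGN, against 8.21 and 7.65 unstimulated. In NOD cells it stood there at 9.95 and 10.03 with PGN, against 8.55 and 7.21 unstimulated. The range of the genes of other tissues, 2.58 to 8.50, took in some unstimulated values. These were 7.87 on 1452160_at and 8.21, 7.65 and 7.21 on 1452161_at, so differences on these probe sets are no exact sizes. The averaged differences of the 3 probe sets were 1.95 ± 0.29, 1.98 ± 0.32 and 2.24 ± 0.28, or folds of 3.85, 3.94 and 4.71. On each of them, replicate 1 was higher than replicate 2 in unstimulated cells of both strains, by 0.44 in NOD.Idd3 and 1.32 in NOD on 1426721_s_at. With PGN replicate 1 was also higher on 1426721_s_at, by 0.63 in NOD.Idd3 and 0.27 in NOD, but on 1452161_at it was lower in NOD.

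Ahr encodes the receptor itself. On 1422631_at its log2 intensity was 10.35 and 10.36 in NOD.Idd3 cells with PGN, against 10.24 and 10.69 in unstimulated NOD.Idd3 cells. In NOD cells it was 10.71 and 10.74 with PGN, against 10.65 and 10.76 unstimulated. The conditions overlapped, and the averaged difference was -0.05 ± 0.15, or a fold of 0.966. The second Ahr probe set, 1450695_at, was dim, with values of 4.24 to 4.90 with PGN and 4.14 to 4.62 unstimulated, and an averaged difference of 0.34 ± 0.19.

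**Figure D2:**
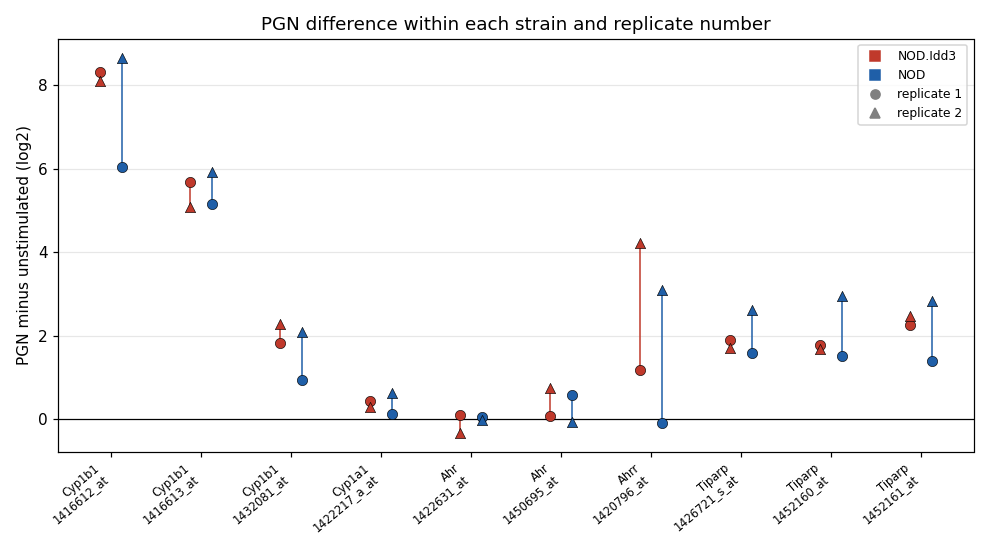
The difference between PGN-treated and unstimulated arrays (vertical axis, log2) of the same replicate number, for each of the 10 probe sets along the horizontal axis. NOD.Idd3 is red and NOD blue, and a line joins the 2 replicates of a strain. Ahrr spans -0.09 to 4.21 and Cyp1b1 on 1416612_at spans 6.05 to 8.66, while Ahr on 1422631_at lies between -0.33 and 0.10.

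Among all 18193 genes, 18% separated the PGN arrays from the unstimulated ones without overlap and 8.6% had all PGN arrays above all unstimulated ones. Cyp1b1, Cyp1a1 and Tiparp were of the second kind, and nothing is read from that count because the same contrast chose the genes. By the size of the averaged difference Cyp1b1 ranked 1, Ahrr 130, Tiparp 153, Cyp1a1 2531 and Ahr 11230 of 18193. Csf3 came next after Cyp1b1.

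The strain comparison did not enter the choice of the genes and was tested with limma over all genes, with Benjamini-Hochberg adjustment. None of the 5 genes passed for a difference between NOD.Idd3 and NOD, and no probe set of theirs separated the strains without overlap, against 2.85% of all genes. Ahr came closest, with an averaged difference of -0.30 ± 0.15 (NOD.Idd3 minus NOD, 4 arrays per strain, limma adjusted p = 0.802, unadjusted p = 0.0785 from the same fit). Its arrays ranged from 10.24 to 10.69 in NOD.Idd3 and from 10.65 to 10.76 in NOD, and they overlapped. Without replicate 1 of unstimulated NOD.Idd3 the Ahr difference was -0.19, and without replicate 2 of that group it was -0.42. The other Ahr probe set had -0.15 ± 0.19.

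For Cyp1b1 the averaged strain difference was -0.61 ± 0.41 (limma adjusted p = 0.864), and its 95% interval was -1.55 to 0.34. With PGN the strains differed by -0.18 ± 0.59 and unstimulated by -1.04 ± 0.59. Both SEs come from a spread per gene that all groups share, so 0.59 is not the spread of the PGN arrays. On 1416612_at the SD was 0.05 in NOD.Idd3 and 0.24 in NOD with PGN, against 0.21 and 1.61 unstimulated. Without replicate 1 of unstimulated NOD the averaged strain difference was -0.04, and without replicate 2 of that group it was -1.18 (limma adjusted p = 0.239). On the other Cyp1b1 probe sets it was -0.16 ± 0.19 for 1416613_at and 0.23 ± 0.21 for 1432081_at, of opposite sign, and the mean of all 3 probe sets gave -0.18. The averaged differences were -0.65 ± 0.79 for Ahrr, -0.17 ± 0.29 for Tiparp (-0.04 and 0.17 on its other probe sets) and 0.06 ± 0.15 for Cyp1a1, with limma adjusted p of 0.915, 0.945 and 0.960. Without replicate 1 of unstimulated NOD the values were 0.22 for Ahrr and 0.16 for Tiparp, and without replicate 1 of NOD with PGN the Cyp1a1 value was -0.04. For Ahrr the interval reached from -2.44 to 1.14.

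The size of the PGN response was compared between the strains in the same way. The response of Cyp1b1 differed by 0.86 ± 0.83 (NOD.Idd3 minus NOD, limma adjusted p = 1.00), with a 95% interval of -1.03 to 2.75. It turned to -0.28 without replicate 1 of unstimulated NOD. On its other probe sets the difference in response was -0.16 ± 0.38 and 0.54 ± 0.42. Tiparp differed by -0.30 ± 0.59, Ahr by -0.13 ± 0.31, Ahrr by 1.20 ± 1.58 and Cyp1a1 by -0.01 ± 0.30. The sign differed on other probe sets, with -0.50 ± 0.65 on 1452160_at and 0.25 ± 0.57 on 1452161_at for Tiparp and 0.15 ± 0.39 on 1450695_at for Ahr. None of the 5 genes passed, and none had an unadjusted p under 0.05 in any strain contrast.

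Over all genes limma called 0 (0%) for the averaged strain difference, with 1175 at an unadjusted p under 0.05, and 0 (0%) for the difference in response, with 314. With the replicate number as a block 27 genes (0.148%) passed for the averaged strain difference, and none of the 5 was among them. Several other measures moved with strain. The log2 difference of the 3' and 5' Gapdh control probe sets, a sign of RNA or labelling quality, was 0.72 to 0.80 in NOD.Idd3 and 0.88 to 1.16 in NOD. The summed intensity of 8 measured tissue macrophage markers was 8079 to 12069 in NOD.Idd3 and 12265 to 16321 in NOD, and that of 6 B cell markers was 696 to 1304 in NOD.Idd3 and 1444 to 4400 in NOD. Dendritic cell markers summed to 3787 to 7504 in NOD.Idd3 and 7932 to 9908 in NOD, and fibroblast markers to 225 to 272 in NOD.Idd3 and 300 to 375 in NOD. Among the fibroblast markers Postn had a strain difference of -1.24, and the others had -0.25 to -0.05. The sums of myeloid, neutrophil, T cell and endothelial markers overlapped between the strains. The part of these measures in the strain values of the 5 genes was not tested.

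**Figure D3:**
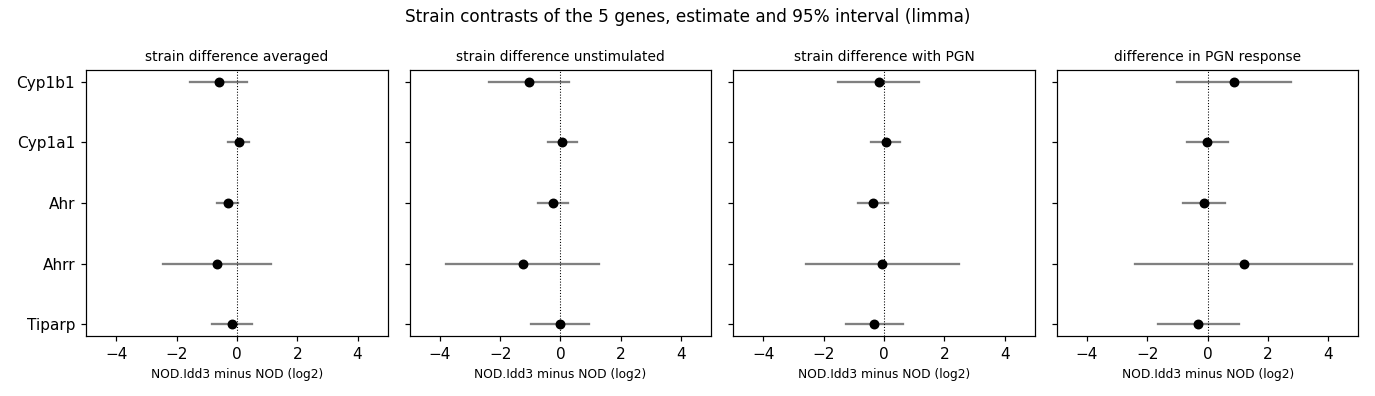
Strain contrasts of the 5 genes (NOD.Idd3 minus NOD, log2, horizontal axis), with points for the limma estimate and lines for its 95% interval. The panels show the average over conditions, unstimulated cells, PGN-treated cells and the difference in PGN response. Every interval includes 0, and those of Ahrr are the widest of the 5 genes in each panel. The intervals of a gene rest on a spread shared by all groups, so those for PGN-treated cells also reflect the unstimulated arrays.

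Markers were read as a description of the cells. Of 8 general myeloid markers all were measured, with Cd14 between 14.27 and 14.56 as group means, and Itgam itself stood at 7.87 to 8.85 with PGN and 8.66 to 9.02 unstimulated. With PGN Itgam thus reached into the range of the genes of other tissues, which ended at 8.50. The summed intensity of the 8 myeloid markers was 78008 to 88740 with PGN and 85708 to 95356 unstimulated. Neutrophil markers summed to 87041 to 90889 with PGN and 97615 to 126746 unstimulated, without overlap, and 3 of 8 fell. Fibroblast markers, which stand for cells that can also carry Cyp1b1, had sums of 244 to 375 with PGN and 225 to 326 unstimulated, with no gene of 8 called and group means of 3.61 to 6.88. Endothelial markers summed to 338 to 533 with PGN and 234 to 284 unstimulated, with 2 of 7 called higher. Those 2 were Kdr and Pecam1, chosen after their values were seen, while Cdh5 lay between 4.25 and 4.42 and Tie1 between 4.02 and 4.10 as group means. With PGN 1 of 8 tissue macrophage, 1 of 6 dendritic cell and 1 of 6 B cell markers was called higher, and of 5 T cell markers 1 was called higher and 1 lower. T cell markers summed to 7838 to 9767 with PGN and 7536 to 9655 unstimulated. Group means ran from 10.32 to 12.13 for Cd3d and 11.52 to 13.00 for Il7r, but from 5.02 to 7.14 for Cd3e, Cd3g and Cd28. The part of these markers in the PGN values was not tested.

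The genes around the receptor were taken from 9 lists that hold no member, with 161 measured genes in all. For the averaged PGN effect limma called 2049 of 18193 genes (11.3%), 885 higher (4.86%) and 1164 lower (6.4%), and 3082 (16.9%) with the replicate block. Of the 161 listed genes 22 were called (13.7%), 11 higher and 11 lower, with a median of 0.11 against 0.05 over all genes. The count was 10 to 13 when any 1 array was left out, except replicate 1 of unstimulated NOD, without which it was 22.

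**Figure D4:**
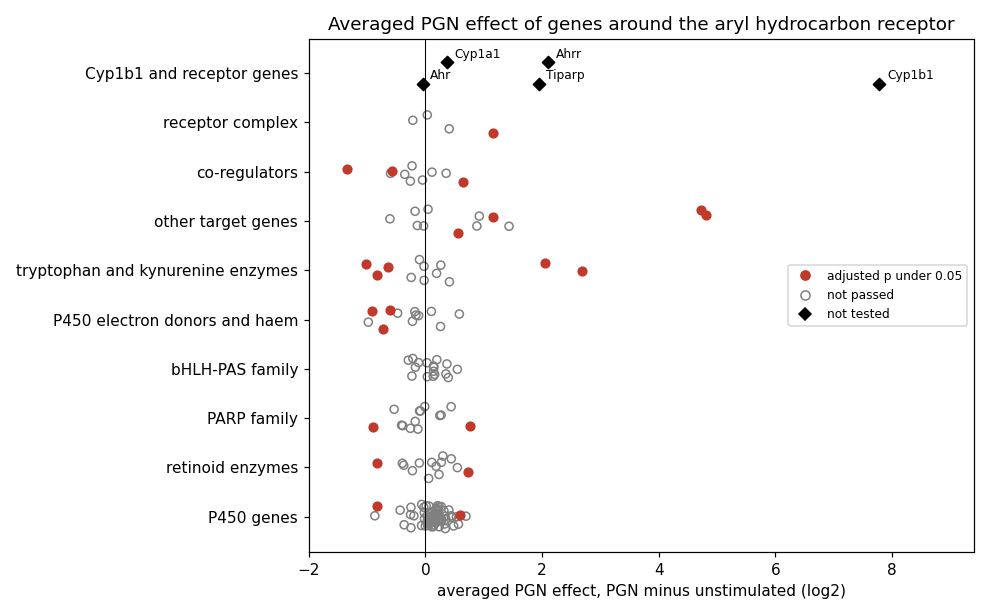
The averaged PGN effect (horizontal axis, log2, PGN minus unstimulated) of the measured genes of each list, 1 row per list, with the 5 receptor pathway genes on a row of their own. Each point is a gene and colour marks those past the adjusted threshold, except that the 5 genes were not tested. Ereg at 4.80 and Serpinb2 at 4.73 lie farthest right among the listed genes, and Cyp1b1 lies at 7.79.

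Among 12 measured target genes of the receptor besides the members, 4 rose and none fell, with a median of 0.72, and with the replicate block 6 rose and 1 fell. Ereg, which encodes the growth factor epiregulin, stood at 8.73 and 8.72 as the means of NOD.Idd3 and NOD cells with PGN, against 4.03 and 3.80 unstimulated, and rose by 4.80 ± 0.32 (limma adjusted p = 0.000130). Serpinb2, a protease inhibitor of macrophages, rose by 4.73 ± 0.32, Gsta2, a glutathione transferase, by 1.17 ± 0.17 and Hes1, a transcriptional repressor, by 0.56 ± 0.15. Gsta2 and Hes1 had every group mean inside the range of the genes of other tissues, 2.58 to 8.50. Gsta2 passed in NOD (limma adjusted p = 0.00775) and not in NOD.Idd3 (0.364), and Hes1 passed in neither strain alone (0.309 and 0.138). No gene of this list, Gsta2 included, passed for the difference in PGN response between the strains. The rises of Ereg and Serpinb2 were known when the list was made. Nqo1, a quinone reductase and a widely used target gene, had -0.18, and Nfe2l2, the oxidative stress regulator, had -0.03, and neither passed. Cyp1a2, the third enzyme of the family, chosen after its values were seen, was dim at 3.03 to 3.08 as group means.

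In the receptor complex 1 of 4 measured genes rose, with a median of 0.22. This was Src, a kinase found with the resting receptor, at 1.16 ± 0.20 (limma adjusted p = 0.00792). Its group means, 5.79 to 7.46, lay inside the range of the genes of other tissues. Hsp90aa1, the chaperone, had 0.41, and Arnt, the DNA-binding partner, had -0.22, with neither passing and 2 of 5 Arnt probe sets of opposite sign. Of 10 co-regulators 1 rose and 2 fell, with a median of -0.24. Relb, an NF-kB subunit reported to partner the receptor, rose by 0.65 ± 0.17. The coactivators Ncoa1 and Ncoa3 fell by 1.34 and 0.57, and 1 of 2 Ncoa3 probe sets had the opposite sign. Crebbp at -0.23 and Ep300 at -0.35 did not pass.

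Enzymes of tryptophan breakdown yield kynurenine, a ligand of the receptor. Of 12 measured, 2 rose and 3 fell, with a median of -0.02. Of the enzymes that open the route, Ido2 rose by 2.68 ± 0.19 (limma adjusted p = 0.000172) and Ido1 by 2.04 ± 0.37 (0.00958), while Tdo2, named after its values were seen, had 0.41 and did not pass (0.220). The mean of Ido1 was 7.09 in NOD.Idd3 and 6.12 in NOD cells with PGN, against 4.63 and 4.49 unstimulated. Within the strains Ido1 passed in NOD.Idd3 (limma adjusted p = 0.0448) and not in NOD (0.133). No gene of this list, Ido1 included, passed for the difference in PGN response between the strains. Later enzymes fell, with -1.02 for Qprt, -0.83 for Haao and -0.65 for Kynu. Kynu was named after its values were seen, and 1 of its 2 probe sets had the opposite sign. Kmo had -0.24 and Afmid -0.02 without passing. Ido1, Ido2, Qprt and Kynu had every group mean inside the range of the genes of other tissues, 2.58 to 8.50.

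Of 12 measured genes of P450 electron supply and haem synthesis none rose and 3 fell, with a median of -0.20, and with the replicate block 1 rose and 4 fell. They were Ephx1, an epoxide hydrolase, at -0.92 ± 0.25, Cyb5a, cytochrome b5, at -0.72 ± 0.17, and Fech, which inserts iron into haem, at -0.60 ± 0.14, with 1 of 4 Fech probe sets of opposite sign. Ephx1 had every group mean, 5.80 to 7.87, inside the range of the genes of other tissues, 2.58 to 8.50, and its conditions overlapped. Hmox1 at 0.10 and Alas1 at 0.26 did not pass. Among 71 measured P450 genes besides the members 1 rose and 1 fell, with a median of 0.16, and with the replicate block 3 rose and 1 fell. Cyp2r1, a vitamin D hydroxylase, rose by 0.59 ± 0.16 (limma adjusted p = 0.0448) at dim levels, and Cyp27a1, a sterol hydroxylase, fell by 0.83, with 1 of its 2 probe sets of opposite sign. Cyp4f18 at 0.70, Cyp4v3 at 0.04, Cyp51 at -0.20 and Cyp20a1 at -0.26 did not pass.

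None of 17 measured genes of the bHLH-PAS family, to which Ahr, Ahrr and Arnt belong, passed, with a median of 0.14, and Hif1a, the oxygen-sensing member, had -0.12. Of 14 measured PARP family genes, the enzyme class of Tiparp, Parp2 rose by 0.76 ± 0.17 and Parp1 fell by 0.90, while Parp14 at 0.25 and Tnks2 at -0.18 did not pass. Of 14 measured retinoid genes, Rdh11 rose by 0.73 ± 0.14 and Rdh10 fell by 0.83. Dhrs3 at 0.30 and Rxra at -0.37 did not pass. Rdh10 had every group mean, 6.71 to 7.59, inside the range of the genes of other tissues, 2.58 to 8.50.

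The genes whose pattern was most like that of Cyp1b1 were found by Pearson's r of the log2 values over the 8 arrays, among 6865 genes with a range of at least 1. All arrays share the PGN contrast, so r is a description. The highest were Fabp3, a fatty acid binding protein, at 0.998, Junb, an AP-1 subunit, at 0.996, Ndrg1 at 0.996, Rab20 at 0.995, Il10, an anti-inflammatory cytokine, at 0.993, Hilpda, a lipid droplet protein, at 0.991, Pgf, a growth factor of the vascular family, and Samd4b at 0.988. Il10 had an averaged PGN effect of 6.52. The lowest r were those of Rnf169 at -0.993, Galc at -0.989, Fbxo9 at -0.989 and Ceacam1 at -0.989. Like Cyp1b1, all the genes named for the highest r were higher in replicate 1 than in replicate 2 of unstimulated NOD. Those named for the lowest r were all lower there, so r also reflects that array. Of the other members Tiparp had 0.952, Cyp1a1 0.863, Ahrr 0.734 and Ahr -0.083, and 151 genes exceeded 0.95.

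Genes beside Cyp1b1 on chromosome 17 were compared with it. Rmdn2, the nearest on one side, had 0.79 ± 0.33 (limma adjusted p = 0.183), and 4930429F11Rik beyond it had 0.21. Hnrnpll on the other side had 0.07 and 4933407O12Rik 0.14, and none of the 4 passed. Beside Tiparp on chromosome 3, Lekr1 rose by 1.35 ± 0.32 (limma adjusted p = 0.0287), while Ccnl1 at 0.39, Ssr3 at 0.33 and Kcnab1 at -0.12 did not pass. The group means of Lekr1, 5.85 to 7.36, lay inside the range of the genes of other tissues, 2.58 to 8.50. Idd3 also lies on chromosome 3.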

How the data were processed

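Total RNA of CD11b+ cells was labelled with the Nugen Encore biotin kit and hybridised to Affymetrix arrays, per the labels' protocols. The deposited values are RMA intensity on a linear scale, per the submitters' processing notes and the values themselves, which ran from 3.97 to 42906. They were turned to log2 with no further normalization. The number of arrays limits the precision.

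Of 45101 probe sets, 34945 had 1 gene symbol in the platform annotation, 932 several and 9160 none, and 34741 were matched to RefSeq by gene ID. A gene was represented by its probe set of highest mean, which gave 18193 genes. The 4 group means were fitted with limma 3.58.1 in R 4.3.3 (lmFit, eBayes) with Benjamini-Hochberg adjustment over all genes at 0.05, after a check on simulated data.

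The members and lists were chosen with earlier results of these data known. Of each list, up to 4 genes that passed, by size, and up to 2 that did not, by level, were named (6 and 4 for P450 genes), besides the 8 highest and 4 lowest r and the nearest 2 genes on each side of Cyp1b1 and Tiparp. Replicate differences of the 6 pairs of groups correlated at 0.167 to 0.415. The replicate numbers were therefore taken to pair the arrays in the differences by replicate number and in the fit with the replicate block. The labels state no such pairing, and the RR1 label, of unstated meaning, does not follow the replicate numbers across the groups. The main fit, which gave the SEs and adjusted p-values unless a block is named, held no replicate term.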

Additional observations from a re-analysis of the deposited data

How the results depend on the processing

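With the replicate block the genes passing numbered 3082 for the averaged PGN effect, 1207 for PGN in NOD.Idd3, 1586 for PGN in NOD and 27 for the averaged strain difference, against 2049, 572, 717 and 0 without it, and the block changed no call of the 5 genes. With RR1, a label of unstated meaning, as a term, 235 genes passed for PGN in NOD.Idd3. Leaving out 1 array gave 1111 to 2139 genes for the averaged PGN effect, 56 to 624 in NOD.Idd3, 77 to 876 in NOD, 10 to 22 listed genes, and 0 for each strain contrast. The mean of all probe sets gave 5.01 for the averaged PGN effect of Cyp1b1, 0.14 for that of Ahr and 0.012 for the Ahr difference in response. The Cyp1a1 difference in response was 0.034 with RR1 and 0.043 after further quantile normalization. Without 1 array the difference in response ran from -0.28 to 2.00 for Cyp1b1, -0.21 to 0.19 for Cyp1a1, -0.35 to 0.10 for Ahr, -0.55 to 2.94 for Ahrr and -0.97 to 0.36 for Tiparp. The averaged strain difference ran from -0.040 to 0.16 for Cyp1a1, -1.52 to 0.22 for Ahrr and -0.50 to 0.16 for Tiparp, and the averaged PGN effect of Ahr from -0.16 to 0.062. The cause was not tested. Under the alternatives the 5 genes were tested only for the averaged strain difference and the difference in response, not for PGN effects. None of these 148 tests passed, and in 17 of them the sign was reversed. Cyp1a1 has no value once genes under the 40th percentile are left out.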

Other observations

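Ahrr differed between the replicate numbers in unstimulated cells of both strains, a pattern noticed after the values were seen. Replicate 1 exceeded replicate 2 by 2.96 in unstimulated NOD.Idd3 cells and by 3.49 in unstimulated NOD cells (log2), while with PGN the differences were -0.07 in NOD.Idd3 and 0.29 in NOD. Ranked by the smaller of the 2 unstimulated differences, Ahrr came first of 18193 genes. The next were Ifit2 at 2.66, Ifit1 at 2.42, Usp18 at 2.32, Ifit3 at 2.17 and Mx1 at 2.16, all known as interferon-induced genes, followed by Oasl1, Adh7 and Cxcl1. Of the 885 genes that rose with PGN, 27 had a difference over 1 in both strains, against 87 of all 18193 genes. The same unstimulated arrays entered the choice of the 885 genes, so nothing is read from these counts. What the replicate numbers stand for was not tested.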
